A study of Homo sapiens with 24 samples.

Results

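Matrix metalloproteinases (MMPs) are zinc-dependent proteases that cut the proteins of the extracellular matrix and the basement membrane. The 10 genes described here were a given list, matched to the count tables by their Ensembl identifiers, and all 10 were found among the 21386 genes in the tables. They are MMP1, MMP2, MMP3, MMP9 and MMP10, whose products are secreted, and MMP14, MMP15, MMP16, MMP17 and MMP24, whose products stay bound to the cell surface (membrane-type MMPs). RNA was sequenced from A375 cells, a human melanoma line, and A549 cells, a human lung adenocarcinoma line. In each line 4 groups of 3 biological replicates were compared: cells with a doxycycline (Dox)-inducible short hairpin RNA against MCM7 (shMCM7) grown for 72 hours with 1 µg/ml Dox or without Dox, and parental cells without the hairpin grown with the same Dox or without it. All 24 samples, controls included, were arrested in G1 with a double thymidine block. MCM7 is a subunit of the helicase loaded onto replication origins in G1, and the comparison of interest is what its knock-down does to transcripts linked to cell invasion. The hairpin was delivered in the vector pRSIT17 at an MOI of 1.4. The RNA of the shMCM7 groups therefore came from transduced cells that were not described as a single clone.

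MMPs are made as inactive proenzymes, and a propeptide has to be removed before they can cut their substrates. Furin-like proprotein convertases do this for the membrane-type members, while plasmin and other MMPs act on several secreted ones. MMP1 is an interstitial collagenase, MMP3 and MMP10 are stromelysins with a broad range of matrix substrates, and MMP2 and MMP9 are gelatinases that degrade denatured collagen and collagen IV of the basement membrane. MMP14 cleaves fibrillar collagen at the cell surface and activates proMMP2 together with the inhibitor TIMP2. MMP15 and MMP16 are, like MMP14, transmembrane enzymes able to activate proMMP2, MMP17 is held by a GPI anchor, and MMP24 is best known from nervous tissue. In melanoma and carcinoma cells MMPs are studied mainly for their part in invasion.

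The hairpin target is shown first because the knock-down defines the groups. Its letters, as the labels give them, match 1 gene of the annotation, MCM7, in 5 of its transcripts. The match lies on the minus strand of chromosome 7, GRCh38 100097728 to 100097836, in coding sequence, and spans the junction of exons 8 and 9 of 15. Capitals mark the 7 letters that would pair with positions 2 to 8 (the seed) of a guide fully complementary to the target.
MCM7 target: cagaggaggatttCTACGAAa
The same 7 letters were found in 0 transcripts of the 10 MMP genes in the annotation. Which strand end the processed guide really starts from was not given, so the absence covers only this reading of the hairpin.

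Promoter sequence from RefSeq was at hand for 1 secreted and 3 membrane-type genes (GRCh38.p14, 250 bases before to 50 bases after the transcription start). These 4 of the 10 genes were MMP10, MMP14, MMP15 and MMP24. MMP1, MMP2, MMP3, MMP9, MMP16 and MMP17 had none. The 100 bases before the start are printed 5′ to 3′ on the gene's strand, with AP-1, TATA box and GC box matches in capitals, because MMP10 was the only secreted gene with an entry and MMP24 the membrane-type gene that was called down-regulated.
MMP10 promoter, chr11:102780629-102780728, minus strand: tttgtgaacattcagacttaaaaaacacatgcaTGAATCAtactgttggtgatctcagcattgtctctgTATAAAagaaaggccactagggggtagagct
MMP14 promoter, chr14:22836485-22836584, plus strand: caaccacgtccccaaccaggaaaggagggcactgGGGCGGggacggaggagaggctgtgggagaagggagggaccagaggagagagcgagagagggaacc
MMP15 promoter, chr16:58025654-58025753, plus strand: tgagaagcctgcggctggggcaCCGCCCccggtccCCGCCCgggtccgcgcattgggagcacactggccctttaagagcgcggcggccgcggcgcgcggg
MMP24 promoter, chr20:35226590-35226689, plus strand: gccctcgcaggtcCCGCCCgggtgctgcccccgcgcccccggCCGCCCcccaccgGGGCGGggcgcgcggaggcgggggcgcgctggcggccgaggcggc
Both strands of the 300 bases were searched for an AP-1 motif (TGA, any base, then TCA), a TATA box (TATAAA), a GC box (GGGCGG) and a CCAAT box (CCAAT). MMP10 held 1 AP-1 match at position -67 and 1 TATA box at position -31 from the start, and no GC box. MMP14 held 1 GC box, MMP15 held 5 and MMP24 held 3, and none of these membrane-type genes had an AP-1 or TATA match. The CCAAT box had 1 match each in MMP10, MMP14 and MMP15 and none in MMP24. As MMP10 was the only secreted gene with an entry, no division between secreted and membrane-type genes can be read from these matches. Of 35116 promoters of the same length, 7.71% held the AP-1 motif, 11.5% the TATA box, 45% the GC box and 34.6% the CCAAT box. The GC content of the 300 bases was 36.3% for MMP10, against 55% for MMP14, 75.3% for MMP15 and 80% for MMP24, around a median of 58.7% for all promoters. A match is a description of the letters and does not show that a factor binds.

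Counts summed to between 146656792 and 283721575 per A375 library and between 17911338 and 23452823 per A549 library. Levels are given as CPM, counts scaled to a common library size. A count of 3, taken as the floor, corresponded to 0.0105 to 0.0208 CPM in A375 and to 0.128 to 0.165 CPM in A549. Such floors speak of counting error alone. A375 libraries carried 501 to 677 CPM of the neural crest gene SOX10 and 25.1 to 35.2 CPM of S100B, while the pigment cell genes MLANA and TYR had at most 2 counts. Of the other melanoma markers listed, PMEL was at 1.91 to 5.24 CPM and DCT at 0.153 to 0.633 CPM, and MITF did not set the lines apart, at 26.7 to 45.1 CPM in A375 and 35.7 to 51.9 CPM in A549. A549 libraries had at least 1630 CPM each of the epithelial keratins KRT7, KRT8 and KRT18, while the lung genes NKX2-1 and SFTPB had at most 1 count. The A375 library parental Dox 3 stood apart with a summed level of 36.8 CPM over 5 fibroblast markers (COL1A1, COL1A2, COL3A1, DCN and LUM), against 13.2 to 18 CPM in the other 11 libraries, so the main results that use it are given below also without it.

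The targeted gene MCM7 was at 76.8, 76.4 and 77.2 CPM in A375 shMCM7 Dox and at 131, 353 and 359 CPM in A375 shMCM7 noDox. The library labelled shMCM7 noDox 1 thus had less MCM7 than the other two of its group, and the results that follow were also computed without it. Parental A375 libraries held 355 to 370 CPM with Dox and 342 to 352 CPM without Dox. In A549 the MCM7 counts go against the labels. MCM7 was at 95.2 CPM in the library labelled shMCM7 Dox 3, at 99.7 CPM in the one labelled shMCM7 noDox 2 and at 88.6 CPM in the one labelled parental noDox 2, and between 299 and 339 CPM in the other 9, which include 2 libraries labelled shMCM7 Dox.

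MMP2 and MMP14 were the most abundant of the 10 transcripts in A375, and MMP24 in A549. To compare genes, CPM was divided by the length of all exons of the gene in kilobases (CPM per kb). The median over the 12 A375 libraries was 78.5 CPM per kb for MMP2, 40.2 for MMP14 and 11.3 for MMP16. The 12-library ranges of these 3 genes overlapped neither with each other nor with that of the next gene. MMP17 (5.46 CPM per kb) and MMP15 (4.87) overlapped, as did MMP15 and MMP1 (3.37). MMP1 was above MMP3 (0.567) in 10 of 12 libraries, and MMP3 was above MMP10 (0.174) in all 12 libraries, although the ranges overlapped. MMP10, MMP24 (0.138) and MMP9 (0.136) could not be ordered, since neighbours overlapped and MMP24 exceeded MMP9 in only 5 of 12 libraries.

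In A549 the order was different. MMP24 led with a median of 24.6 CPM per kb, followed by MMP15 with 5.96, and neither range overlapped with that of the next gene. MMP2 (1.59 CPM per kb), MMP17 (1.44) and MMP14 (0.605) followed, with MMP2 and MMP17 not separated and MMP17 above MMP14 in all 12 libraries. MMP9 (0.0988), MMP10 (0.0968), MMP16 (0.0517), MMP1 (0.0379) and MMP3 (0.0226) formed the lower end, where each gene overlapped with its neighbour. Their largest counts in any A549 library were 12 for MMP9, 22 for MMP10, 27 for MMP16, 5 for MMP1 and 3 for MMP3. MMP3 was at or under the floor of 3 counts in all 12 libraries and MMP1 in 11 of 12, so levels of these genes could not be read in A549 at this depth.

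**Figure D1:**
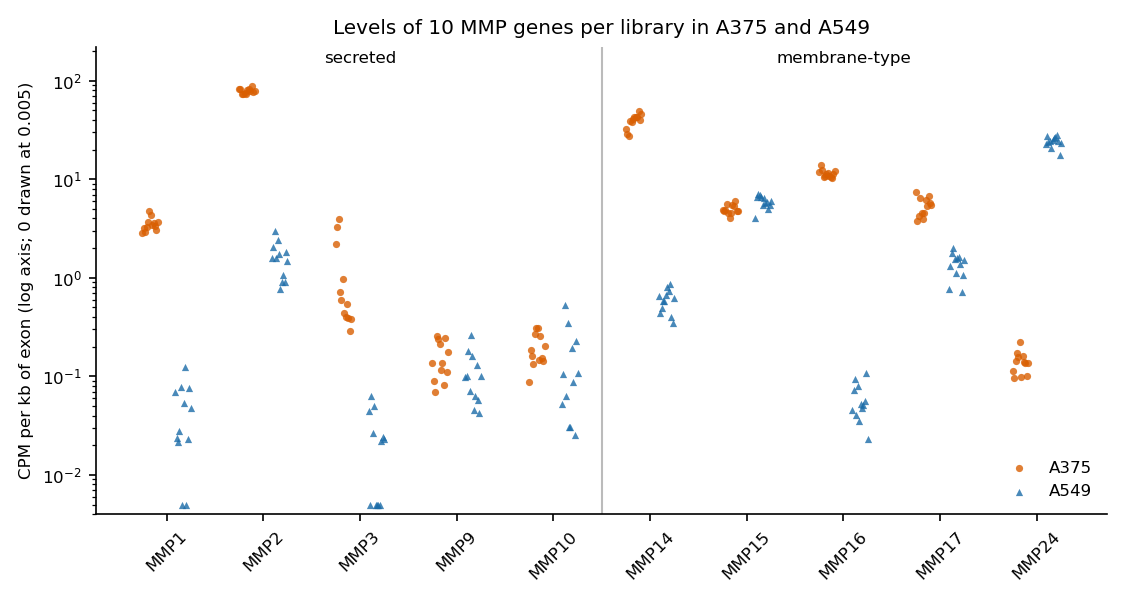
Level of each MMP gene in each library, in CPM per kb of exon on a log axis, for 12 A375 libraries (circles) and 12 A549 libraries (triangles). Points at a count of 0 are drawn at 0.005. MMP2, MMP14 and MMP16 lie far higher in A375 and MMP24 far higher in A549, while the points of MMP15 overlap between the lines.

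Between the lines, the 12-library ranges did not overlap for 7 of the 10 genes. Median CPM was higher in A375 than in A549 by 49.3-fold for MMP2, 66.4-fold for MMP14, 218-fold for MMP16 and 3.79-fold for MMP17. MMP1 and MMP3 were at 6.65 and 1.16 CPM in A375 and at or near the floor in A549, so no fold is given. MMP24 was 178-fold higher in A549, at 109 CPM against 0.61 CPM. The ranges overlapped for MMP9, MMP10 and MMP15, the last with medians of 21.5 CPM in A375 and 26.3 CPM in A549. The lines were sequenced to different depths, and no test was run between them.

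The balance of membrane-type and secreted transcripts followed from these few abundant genes. In A549, 89.9% to 97.5% of the summed CPM per kb of the 10 genes came from the membrane-type members, mostly MMP24. In A375 parental cells the share was 42.8% to 43.9% with Dox and 43.3% to 45.3% without Dox, and in shMCM7 noDox it was 44.2%, 42.3% and 43%. In A375 shMCM7 Dox it was 39.2%, 36.6% and 37.8%, below every other A375 library. The secreted sum in shMCM7 cells was 88.6, 88.5 and 80.7 CPM per kb with Dox and 78.4, 79.4 and 79.4 without, and the membrane-type sum was 57.1, 51.1 and 49.2 against 62.1, 58.1 and 60. MMP14 alone made up 20.5% to 22.5% of the sum of all 10 genes with Dox and 27.7% to 29.1% without Dox. These shares are sums of levels and carry no test.

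Upon Dox induction of shMCM7 in A375 cells, MMP3 was up-regulated and MMP9 and MMP24 were down-regulated, while 7 of the 10 MMP genes did not pass the thresholds. A gene was called when the fold change was 1.5 or more, the p-value was below 0.01 and the false discovery rate (FDR, Benjamini-Hochberg over all genes tested) was below 0.05, in edgeR's quasi-likelihood test. All 10 genes were tested. The 3 calls among 10 compare with 1934 calls among 16087 genes (12%), of which 897 (5.58%) were up-regulated and 1037 (6.45%) down-regulated. The CPM of the 3 Dox and the 3 noDox libraries did not overlap for 6 of the 10 MMP genes, 3 secreted and 3 membrane-type, and for 54.4% of all tested genes. Both shares are set beside each other as descriptions. The 10 members were chosen with earlier results of these data known, so their share of calls cannot be weighed against that of all genes. Of the 5 secreted genes, 1 was called up and 1 down, with a median log2 fold change of -0.39. Of the 5 membrane-type genes, 0 were called up and 1 down, with a median of 0.04. The median of all tested genes was 0.004.

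MMP3, stromelysin 1 (ENSG00000149968, chromosome 11, 102835801 to 102843803), showed the largest change of the 10 genes. It was at 4.57, 6.72 and 8.04 CPM in shMCM7 Dox, on 1241 to 1888 counts, and at 1.46, 1.21 and 2.01 CPM in shMCM7 noDox, on 250 to 514 counts. In parental cells it was at 0.895, 0.82 and 1.11 CPM with Dox and at 0.808, 0.587 and 0.774 CPM without Dox. The lowest induced shMCM7 library lay above every other A375 library, and the lowest uninduced shMCM7 library lay above every parental one. The log2 fold change upon induction was 2.04 (95% interval 1.52 to 2.55, FDR = 0.00019, edgeR), a 4.1-fold rise. It was called whichever of the 6 libraries was left out, and was 1.99 (FDR = 0.0007) without shMCM7 noDox 1.

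MMP9, gelatinase B (ENSG00000100985, chromosome 20, 46008908 to 46016561), was at 0.317, 0.211 and 0.162 CPM in shMCM7 Dox and at 0.596, 0.558 and 0.497 CPM in shMCM7 noDox. The groups did not overlap, but the values rest on 38 to 132 counts a library. The log2 fold change was -1.24 (95% interval -1.78 to -0.69, FDR = 0.0031, edgeR), and -1.17 without shMCM7 noDox 1, still called. Parental cells held 0.271, 0.318 and 0.193 CPM with Dox and 0.577, 0.263 and 0.409 CPM without Dox, and the parental Dox range overlapped with that of shMCM7 Dox. SLC12A5-AS1, annotated on the opposite strand, shares 18.41% of the exon bases of MMP9. Whether counting used the strand was not stated, so reads of the pair cannot be told apart.

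MMP24 (ENSG00000125966, chromosome 20, 35226654 to 35277000) was at 0.502, 0.428 and 0.635 CPM in shMCM7 Dox and at 0.758, 0.694 and 0.989 CPM in shMCM7 noDox. The log2 fold change was -0.64 (95% interval -1.09 to -0.19, FDR = 0.027, edgeR), close to the limit of 1.5-fold. The call was lost without shMCM7 Dox 1 (-0.61), shMCM7 Dox 2 (-0.53), shMCM7 noDox 1 (-0.69) or shMCM7 noDox 3 (-0.47), and with the size factors of DESeq2 (-0.64, FDR = 0.029). Parental cells held 0.437, 0.705 and 0.616 CPM with Dox and 0.605, 0.444 and 0.601 CPM without Dox, a range of 0.437 to 0.705 CPM. Of the induced shMCM7 values the lowest lay outside it, and of the uninduced ones 0.758 and 0.989 CPM lay above it.

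MMP24OS, a protein-coding gene on the other strand, shares 799 exon bases with MMP24, 18.1% of the exon bases of MMP24, and went the other way. It was at 91.2, 92.5 and 104 CPM in A375 shMCM7 Dox and at 59.7, 49.5 and 46.2 CPM in shMCM7 noDox, a log2 fold change of 0.89 (FDR = 0.00014, edgeR). Parental cells held 44.3 to 51.3 CPM with Dox and 48.1 to 53.6 CPM without Dox. The antisense partner was far more abundant than MMP24 in A375 and less abundant in A549, where the medians were 44.5 CPM for MMP24OS and 109 CPM for MMP24. Since use of the strand was not stated, the MMP24 counts of A375 in particular may hold reads from MMP24OS, and the part of such reads was not tested.

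**Figure D2:**
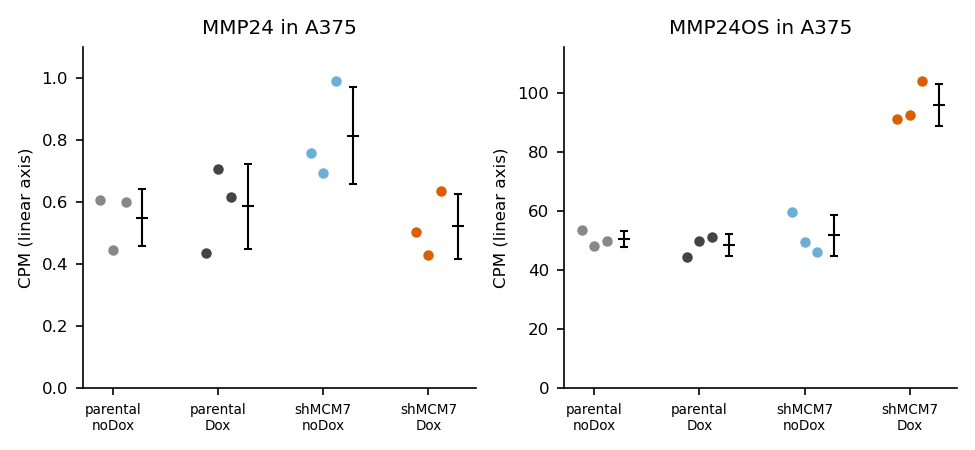
CPM of MMP24 (left) and of its opposite-strand partner MMP24OS (right) in the 12 A375 libraries, on linear axes from 0. Points are replicates 1 to 3 from left, and bars are the mean with the SD (n = 3). With Dox in shMCM7 cells MMP24 has a mean of 0.522 CPM against 0.814 CPM without, while MMP24OS has 96 CPM against 51.8 CPM.

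MMP14, the membrane-type enzyme that activates proMMP2 (ENSG00000157227, chromosome 14, 22836557 to 22849027), was at 146, 127 and 123 CPM in shMCM7 Dox and at 175, 170 and 181 CPM in shMCM7 noDox. The groups did not overlap. The log2 fold change was -0.41 (95% interval -0.56 to -0.25, FDR = 0.0014, edgeR), a 1.33-fold difference that is below the 1.5-fold limit, so MMP14 was not called. The values rest on at least 23539 counts a library. Its partner MMP2, gelatinase A (ENSG00000087245, chromosome 16, 55389700 to 55506691), was at 411, 403 and 363 CPM with Dox and at 365, 368 and 361 CPM without, and the interval of its log2 fold change of 0.10 ran from -0.03 to 0.24 (FDR = 0.17, edgeR).

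MMP1, interstitial collagenase (ENSG00000196611, chromosome 11, 102789920 to 102798160), was at 5.66, 6.24 and 5.76 CPM in shMCM7 Dox and at 6.48, 7.25 and 9.4 CPM in shMCM7 noDox. The groups did not overlap, but the log2 fold change of -0.39 (95% interval -0.68 to -0.10, FDR = 0.035, edgeR) stayed below the limit. MMP10, stromelysin 2 (ENSG00000166670, chromosome 11, 102770503 to 102780628), was at 0.153, 0.325 and 0.285 CPM with Dox and at 0.235, 0.471 and 0.547 CPM without Dox, on 44 to 140 counts. These groups overlapped through the library shMCM7 noDox 1, the one with less MCM7 than the rest of its group. The log2 fold change of MMP10 was -0.75 (95% interval -1.54 to 0.04, FDR = 0.11, edgeR), and -1.04 (FDR = 0.02) without shMCM7 noDox 1, which is a call. Leaving out each of the 6 libraries in turn gave values from -1.04 to -0.46, and MMP10 was not called in 5 of these fits. MMP10, MMP1 and MMP3 lie within 73.3 kb of each other on chromosome 11, and their fold changes differed in sign.

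MMP16 (ENSG00000156103) was at 144, 168 and 149 CPM in shMCM7 Dox and at 128, 131 and 135 CPM in shMCM7 noDox. Its log2 fold change of 0.22 (95% interval 0.08 to 0.37, FDR = 0.021, edgeR) was below the limit. MMP15 (ENSG00000102996, chromosome 16, 58025566 to 58046901) was at 21.8, 21.2 and 21.8 CPM with Dox and at 24.9, 20.3 and 17.9 CPM without, with an interval of -0.20 to 0.28. MMP17 (ENSG00000198598, chromosome 12, 131828393 to 131851783) was at 29.8, 15.1 and 16.9 CPM with Dox and at 25.7, 18.1 and 16 CPM without, with an interval of -0.51 to 0.61. For MMP17 a change of 1.5-fold in the up direction is still inside that interval, whereas for MMP15 and MMP2 it is not. In both groups the replicate labelled 1 had the highest MMP17 value, and the fit behind these intervals took no account of the replicate number. A fit blocked on the replicate number gave 0.01 for MMP17 (FDR = 0.9, edgeR). Its standard error was well below the 0.25 of the fit without the block. The wide MMP17 interval, and the 1.5-fold change inside it, therefore hold only for the fit without the block.

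**Figure D3:**
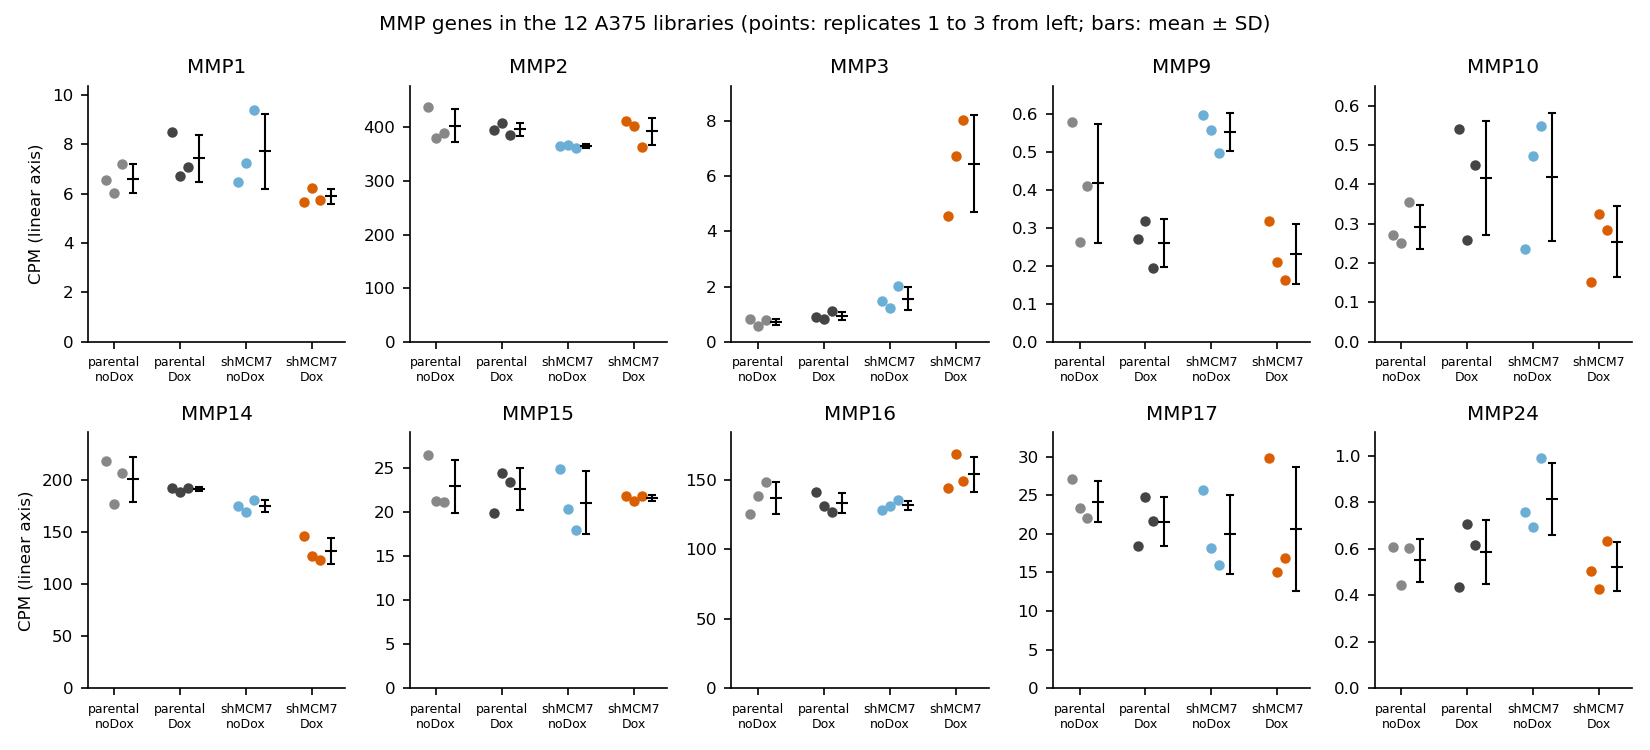
CPM of the 10 MMP genes in the 12 A375 libraries, one panel per gene with its own linear axis from 0. Points are replicates 1 to 3 from left, and bars are the group mean with the SD (n = 3). MMP3 stands out in shMCM7 Dox (4.57 to 8.04 CPM), MMP14 is lowest there (123 to 146 CPM), and the groups of MMP15 and MMP17 overlap throughout.

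In parental A375 cells, the same Dox treatment called none of the 10 MMP genes. edgeR's test called 0 of 15993 genes (0%), with 1121 genes at an unadjusted p below 0.05, and DESeq2 called 3. Of the MMP genes, 1 had an unadjusted p below 0.05, MMP9, with a log2 fold change of -0.69 (95% interval -1.35 to -0.03, FDR = 0.69, edgeR) and overlapping groups. Without parental Dox 3, the A375 library with the highest sum of fibroblast markers, it was -0.49. MMP3 had 0.38 (95% interval -0.02 to 0.79, FDR = 0.72), and 0.24 without parental Dox 3, although its 3 Dox libraries all lay above the 3 noDox ones. MMP10 had 0.50 (95% interval -0.10 to 1.10, FDR = 0.74), the opposite sign from shMCM7 cells, and 0.42 without parental Dox 3. MMP14 had -0.07, or -0.08 without parental Dox 3, and its interval of -0.22 to 0.08 does not reach the value of -0.41 measured in shMCM7 cells.

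The Dox effect itself differed between shMCM7 and parental cells for MMP3, and for no other MMP gene by the thresholds. In a fit over all 12 A375 libraries with an interaction term, 1720 of 16334 genes (10.5%) were called, and 1 of the 10 MMP genes. The log2 difference for MMP3 was 1.65 (95% interval 0.97 to 2.33, FDR = 0.0017, edgeR), and 1.79 without parental Dox 3. MMP9 had -0.55 (95% interval -1.46 to 0.36, FDR = 0.35), and -0.75 without parental Dox 3, so its fall in shMCM7 cells was not shown to differ from the change in parental cells. MMP14 had -0.34 (95% interval -0.57 to -0.11, FDR = 0.027), below the 1.5-fold limit, and -0.33 without parental Dox 3.

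For 3 further MMP genes, the call on this difference hung on single libraries. MMP1 had -0.56 (95% interval -0.94 to -0.17, FDR = 0.03, edgeR), a 1.47-fold difference. It was called when shMCM7 Dox 2 (-0.59), shMCM7 noDox 1 (-0.66), shMCM7 noDox 2 (-0.60), parental Dox 2 (-0.63), parental Dox 3 (-0.59) or parental noDox 3 (-0.62) was left out. MMP10 had -1.25 (95% interval -2.30 to -0.19, FDR = 0.07) and was called without shMCM7 noDox 1 (-1.52) or parental Dox 2 (-1.50). MMP24 had -0.75 (95% interval -1.40 to -0.09, FDR = 0.079) and was called without parental Dox 1 (-0.90). The remaining intervals were -0.05 to 0.31 for MMP2, -0.29 to 0.41 for MMP15, 0.06 to 0.48 for MMP16 and -0.45 to 0.88 for MMP17.

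**Figure D4:**
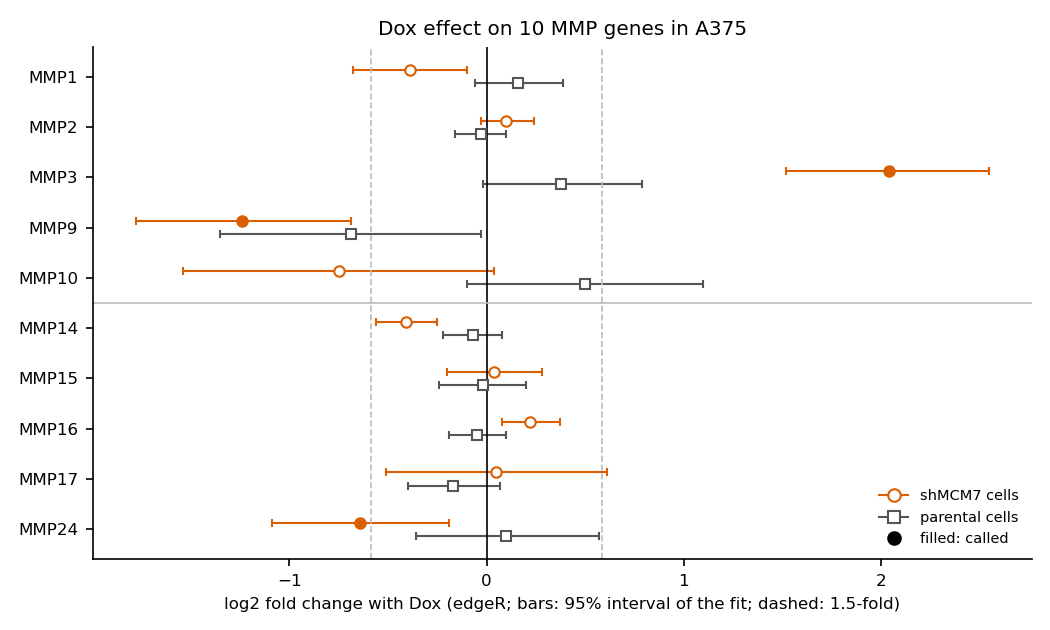
Log2 fold change with Dox for the 10 MMP genes in A375 shMCM7 cells (circles) and parental cells (squares), with the 95% interval of the edgeR fit. Filled symbols are called and dashed lines mark 1.5-fold. MMP3 lies at 2.04 in shMCM7 and 0.38 in parental cells, MMP9 is negative in both, and MMP24 is filled in shMCM7 cells only, at -0.64.

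Already without Dox, MMP3 was higher in shMCM7 than in parental A375 cells. The mean was 1.56 ± 0.407 CPM against 0.723 ± 0.119 CPM (SD, n = 3 each). The log2 fold change was 1.11 (95% interval 0.65 to 1.57, FDR = 0.019, edgeR). It was the only MMP gene of the 10 called, where 266 of 16093 genes (1.65%) were called in all. A fit blocked on the replicate number called 484 genes, MMP3 among them. The call was lost without parental noDox 2 (0.98, FDR = 0.098) or parental noDox 3 (1.17, FDR = 0.074). MMP24 had 0.57 (FDR = 0.19) with groups that did not overlap, and MMP9 and MMP10 had 0.40 and 0.52 with groups that did.

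With Dox in both, MMP3 was at 6.45 ± 1.75 CPM in shMCM7 and 0.941 ± 0.15 CPM in parental A375 cells (SD, n = 3 each), which is 2.77 on the log2 scale (95% interval 2.28 to 3.25, FDR = 1.6e-05, edgeR), and 2.92 without parental Dox 3. It was again the only MMP gene of the 10 called, among 2578 calls in 16086 genes (16%). MMP14 had -0.54 (95% interval -0.69 to -0.39, FDR = 0.00022), a 1.45-fold difference, and was called without shMCM7 Dox 1 (-0.62) but not without parental Dox 3 (-0.53). MMP9 and MMP24 were not called here, with -0.15 (95% interval -0.82 to 0.52) and -0.18 (95% interval -0.67 to 0.31), or -0.34 and -0.14 without parental Dox 3. This comparison and the preceding ones share libraries with each other and are not independent.

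The other MMP genes of the genome, 13 in the tables, added no call upon induction of shMCM7 in A375. Of these, 9 were tested and 0 were called by edgeR, with a median log2 fold change of 0.05. MMP19 had 0.48 (95% interval 0.31 to 0.65, FDR = 0.00095), 1.4-fold, and MMP11 had 0.50 (95% interval 0.12 to 0.87, FDR = 0.038). MMP7, matrilysin, was present in A549 at 26.7 to 65.8 CPM and had at most 11 counts in A375. Between the Dox-treated groups, MMP21 was called higher in shMCM7 than in parental A375 cells (FDR = 0.008, edgeR), at means of 0.0564 and 0.00925 CPM. It had at most 18 counts, and its parental mean was under the floor. MMP8, neutrophil collagenase, was the reverse of MMP7, at 7.14 to 10.7 CPM in A375 and at 0 counts in all A549 libraries.

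Of 10 tested genes for MMP activation and the plasminogen system, 1 was called up-regulated and 3 down-regulated upon induction in A375, with a list median of -0.07, beside 5.58% of all genes called up-regulated and 6.45% down-regulated. PLAU, the urokinase that turns plasminogen into plasmin, rose from 1.87 ± 0.491 to 3.84 ± 0.542 CPM (log2 fold change 1.04, FDR = 0.002, edgeR). PLAT, the tissue plasminogen activator and by CPM the most abundant of the called genes of this list, fell from 259 ± 34.5 to 165 ± 16.1 CPM (-0.65, FDR = 0.00092). The proprotein convertase PCSK6 fell from 0.45 ± 0.104 to 0.172 ± 0.0266 CPM (-1.40, FDR = 0.0013), and SERPINB2, a urokinase inhibitor, fell to 0.0897 ± 0.0229 from 0.28 ± 0.178 CPM (-1.65, FDR = 0.018). Values are means with the SD of n = 3 libraries.

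Among the MMP inhibitors, 1 of 5 tested genes was called, beside 12% of all genes. This was TIMP2, which binds MMP14 and proMMP2, with a log2 fold change of 0.80 (FDR = 9.6e-05, edgeR). It stood at 29.4 ± 3.03 CPM per kb without Dox and 51 ± 2.81 CPM per kb with Dox, beside 39.3 ± 1.3 and 29.6 ± 2.76 CPM per kb for MMP14 in the same libraries. On this scale the MMP14 level lay above that of TIMP2 in uninduced cells and below it in induced cells. Of the 5 inhibitors, 2 were higher and 3 lower with Dox, with a list median of -0.10. TIMP1 fell from a mean of 353 to 262 CPM (-0.43, FDR = 0.0009, edgeR), below the 1.5-fold limit. RECK rose by 0.43 (FDR = 0.0026), also below it. TIMP3, at 1429 CPM without and 1334 CPM with Dox, had -0.10 (FDR = 0.27). Of 12 AP-1 and ETS factors, the families known to act on MMP promoters, 2 were called up and 0 down, with a list median of 0.08. This stands beside 12% of all genes called, and nothing particular to these lists is read from their counts. JUN, a subunit of AP-1, rose from 20.8 ± 2.98 to 39.3 ± 10.5 CPM (0.92, FDR = 0.0023), and ETS1 rose from 83.9 ± 7.36 to 134 ± 6.66 CPM (0.67, FDR = 0.00013). FOSL2, another AP-1 subunit, was called between uninduced shMCM7 and parental cells (0.84, FDR = 4.2e-05) and not upon induction (0.05, FDR = 0.6). In parental cells, Dox called no gene of these 3 lists. In the test of the difference of Dox effects, PLAU (1.05, FDR = 0.011), PCSK6 (-1.56, FDR = 0.0027), TIMP2 (0.69, FDR = 0.00044), JUN (0.96, FDR = 0.0041) and ETS1 (0.68, FDR = 0.00013) were called. PLAT (-0.52, 95% interval -0.89 to -0.16, FDR = 0.033, edgeR) was not, because its 1.44-fold difference is below the 1.5-fold limit. SERPINB2 (-1.88, FDR = 0.062) was not called either, and its change was not shown to differ from that in parental cells.

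Over the 12 A375 libraries, the genes whose log2 CPM followed MMP3 most closely were ILK (Pearson's r = 0.991), PODXL (0.990) and THBS4 (0.988). For MMP9 they were FSTL3 (0.912), SLC27A6 (0.887) and IL11 (0.884), and for MMP24 they were IZUMO4 (0.915), DHX30 (0.868) and ACKR1 (0.860). The libraries share the 4 groups and their depth, so these correlations describe a shared pattern over groups and carry no test.

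The defining leukocyte genes PTPRC and CD3E had at most 12 and 8 counts in A375. The sum of 4 leukocyte markers was 88.6 to 94.6 CPM in A375 shMCM7 Dox and 68.4 to 73.6 CPM in shMCM7 noDox, nearly all of it CD68 and LYZ, and the sum of 5 fibroblast markers was 13.2 to 14.6 CPM against 16.7 to 17.6 CPM. The sum of 8 lung epithelial markers was 373 to 485 CPM in shMCM7 Dox and 356 to 417 CPM in shMCM7 noDox. Both ranges lay above the 284 to 304 CPM of all 6 parental A375 libraries, as those of MMP3 did. Most of this sum was KRT18 and KRT8, with A375 medians of 242 and 72.7 CPM. KRT19, EPCAM, CDH1, NKX2-1 and SFTPB reached at most 0.837 CPM in A375. In such bulk RNA, fewer cells of a kind and less RNA per cell cannot be told apart, and the part of these differences in the MMP results was not tested.

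In A549, the libraries were read one by one because MCM7 goes against the labels. MMP10 and MMP16 were higher in each of the 3 libraries with MCM7 below 150 CPM than in the 9 libraries with MCM7 above 250 CPM. MMP10 was at 0.939 CPM (22 counts) in the library labelled shMCM7 Dox 3, at 0.615 CPM (12 counts) in shMCM7 noDox 2 and at 0.401 CPM (8 counts) in parental noDox 2, against 0.0452 to 0.341 CPM (at most 7 counts) in the other 9. MMP16 was at 1.15 CPM (27 counts), 0.973 CPM (19 counts) and 1.3 CPM (26 counts) in the same libraries. In the others it was at 0.283 to 0.887 CPM (at most 19 counts), so the raw counts of MMP16 meet at 19. Of 13550 genes, 39.2% had the 3 libraries all above or all below the other 9, counted over the genes tested by label. Of the 6 MMP genes among the 13550, MMP16 was the 1 set apart, and MMP10 was not tested. A share of 1 in 6 is not above that background and is no result about this family.

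The other 8 MMP genes overlapped. MMP2 was at 14.6, 12 and 8.92 CPM in the libraries labelled shMCM7 Dox 3, shMCM7 noDox 2 and parental noDox 2, and at 3.78 to 10 CPM in the other 9. MMP24 was at 106, 92.4 and 77.7 CPM in these and at 101 to 124 CPM in the others, the first of them inside that range. MMP24OS was at 74.3, 74.9 and 59.8 CPM and at 32.3 to 47.5 CPM in the others. MMP3, which carried the largest change in A375, had at most 3 counts in any of the 12 libraries, so its response could not be read in A549 at this depth. Since these libraries were set apart by a measured value and not by their labels, no mean or test over them is given.

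**Figure D5:**
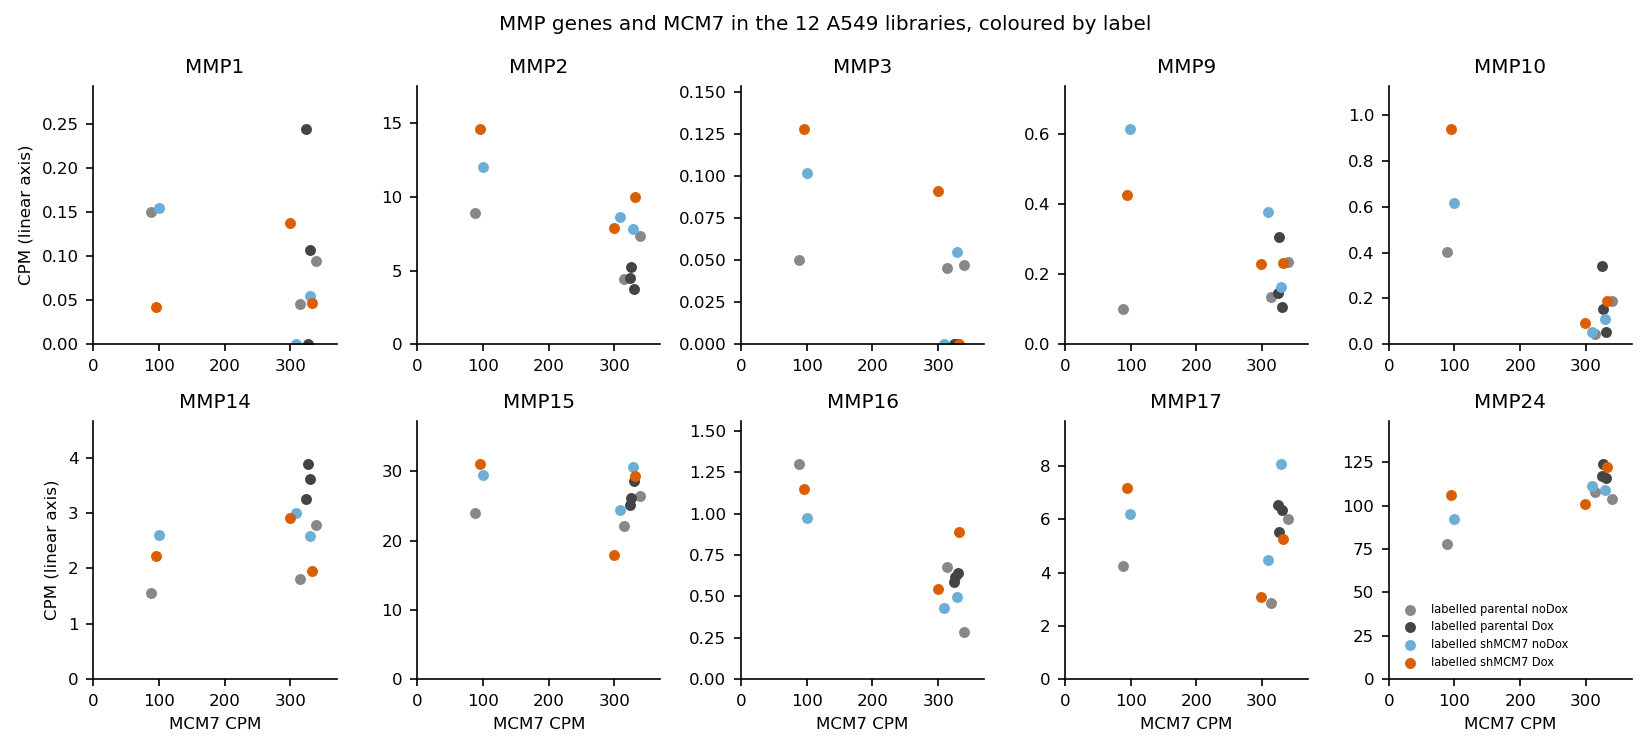
CPM of each MMP gene against CPM of MCM7 in the 12 A549 libraries, coloured by label, one panel per gene with linear axes from 0. The 3 libraries with MCM7 between 88.6 and 99.7 CPM carry 3 different labels, lie above the rest for MMP10 and MMP16, and overlap with it for the other genes.

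By label, no MMP gene was called between A549 shMCM7 Dox and noDox libraries. edgeR's test called 0 of 13550 genes (0%), with 61 genes at an unadjusted p below 0.05, and DESeq2 called 0. MMP1, MMP3, MMP9 and MMP10 were removed by the filter on low counts. Among the 6 MMP genes tested, log2 fold changes lay between -0.27 for MMP17 (95% interval -1.10 to 0.56) and 0.44 for MMP16 (95% interval -0.62 to 1.49). For MMP24 the interval was -0.22 to 0.35 around 0.07. Because each of the compared label groups holds 1 library with low MCM7, these values do not measure the effect of an MCM7 knock-down.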

How the data were processed

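The authors deposited 1 table of raw counts per gene for each of 24 libraries. Per the labels, bcl2fastq 2.19, Trimmomatic, STAR 2.7.1, featureCounts, edgeR and GRCh38.p10 were used. Counting settings, including strand and reads that match several genes such as MMP3 and MMP10, are not given in the sources used here. Of 21386 identifiers, 21349 were found in GENCODE 29, which gave names, positions and exon lengths.

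Groups came from the labels. CPM used edgeR's TMM factors. Comparisons were tested in R 4.3.3 with edgeR 4.0.16 (filterByExpr, glmQLFit, glmQLFTest) over all genes passing the filter, with Benjamini-Hochberg adjustment. Alternatives were DESeq2 1.42.0 and its size factors, other filters and prior counts, the replicate number as a block, and leaving out each library. All members and the gene sets for activators, inhibitors and factors were described, and members called in A375 shMCM7 were given their 3 most correlated genes. Members and lists were chosen with earlier results of these data known. One listed gene is not reported here. The test was tried on simulated counts. No 2 replicates were duplicates (chi-square per degree of freedom of 1.95 to 108 over 24 pairs). Same-numbered libraries deviated together in every pair for A375 shMCM7 noDox against parental noDox (r = 0.212 to 0.341). The r was also positive in every pair for A375 shMCM7 Dox against noDox (0.0881 to 0.256). For parental Dox against noDox it was positive too, but as low as 0.0177 (up to 0.319). Between the A375 Dox groups and in A549 its sign was mixed.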

Additional observations from a re-analysis of the deposited data

Results flagged for a closer look

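One result was singled out. In a direct test in A375, Dox changed MMP3 more in shMCM7 cells than in parental cells, with a log2 difference of 1.65 (95% interval 0.97 to 2.33, FDR = 0.0017, edgeR). MMP3 was higher with Dox in 3 of 3 shMCM7 libraries than in any uninduced shMCM7 library. Leaving out 1 of the 12 libraries at a time gave differences from 1.46 to 1.88, each of them called. This contrast uses the same shMCM7 libraries as the Dox comparison and is not separate evidence.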

How the results depend on the processing

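Of 777 recomputed log2 fold changes of the MMP genes, 732 kept their sign and their side of the thresholds, 7 lost a call, 12 gained one and 26 changed sign, all 26 when a library was left out. Genes called in parental A375 cells were 3 by DESeq2's test and 12 with the replicate block, against 0, and ranged from 0 to 1 with single libraries left out. For A375 shMCM7 noDox against parental noDox the replicate block called 484 genes, and leaving out libraries gave 173 to 321 genes and 0 to 1 MMP genes (173 without parental noDox 2 and 177 without parental noDox 3). MMP genes called ranged from 1 to 3 for the difference of Dox effects and from 1 to 2 for shMCM7 Dox against parental Dox. The cause was not tested.

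Same-numbered libraries had r from 0.0881 to 0.256 in A375 shMCM7, above every r between different numbers there (-0.235 to 0.0429). The r was 0.0177 to 0.319 in parental cells, -0.0976 to 0.272 between Dox groups and -0.687 to 0.207 in A549. In these comparisons the replicate block made MMP10 a call in shMCM7 cells (-0.71, FDR = 0.0098, edgeR). It changed no other call of an MMP gene. DESeq2's size factors ended the MMP24 call (-0.64). Uncalled fold changes that changed sign without single libraries ranged as follows. In A375 shMCM7 cells MMP15 ranged from -0.06 to 0.18 and MMP17 from -0.31 to 0.28. In parental cells MMP2 ranged from -0.06 to 0.04, MMP15 from -0.08 to 0.09, MMP16 from -0.11 to 0.01 and MMP24 from -0.05 to 0.26. For the difference of Dox effects MMP15 ranged from -0.06 to 0.21 and MMP17 from -0.15 to 0.45. MMP16 ranged from -0.12 to 0.00 between uninduced groups. Between Dox groups MMP2 ranged from -0.05 to 0.04, MMP9 from -0.48 to 0.06 and MMP17 from -0.43 to 0.12. In A549 by label MMP2 ranged from -0.09 to 0.40, MMP15 from -0.26 to 0.10 and MMP24 from -0.01 to 0.13.

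Depth is a limit in A549, where MMP1, MMP3, MMP9 and MMP10 had at most 22 counts.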
